A study of Homo sapiens with 12 samples.

Results

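Nucleotide excision repair was followed through 10 genes, XPA, XPC, DDB1, DDB2 and ERCC1 to ERCC6, in RT4, an established cell line from a human bladder cancer. They were chosen by name, matched to their Ensembl identifiers, and make up 10 of 61860 genes in the count table of the first experiment and 10 of 62700 in that of the second. In the first experiment 3 libraries came from cells with a plasmid that carries Flag-tagged ITGB4 (Flag_ITGB4) and 3 from cells with the empty Flag vector (Flag_EV), all with the treatment label transfection infection. ITGB4 is the beta 4 integrin subunit. The second set 3 libraries of a cisplatin-resistant RT4 line, labelled WT with cisplatin as treatment, beside 3 libraries of parental RT4 cells, labelled WT with PBS as treatment. No dose or time is given, so the effect of having become resistant and that of cisplatin in the medium cannot be told apart. Each experiment rests on 1 cell line, and no label describes the libraries of a group as separate cultures, so the p-values cover the spread among these libraries alone, and that spread may be technical. In both groups of the first experiment, 1 label of replicate 2 names ITGB5 and that of replicate 3 names ITGB6, while their titles name ITGB4. The columns taken as parental are headed NC and were placed by inference, since they share a table with the resistant libraries. Their numbers are tied to no sample, and they are given here as parental library a, b or c.

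Nucleotide excision repair removes bulky DNA lesions, among them ultraviolet photoproducts and the intrastrand crosslinks that cisplatin makes. In the genome-wide branch XPC finds the distortion, helped by the DDB1-DDB2 complex, and in the transcription-coupled branch a stalled RNA polymerase calls in ERCC6. Both branches then meet: the TFIIH helicases ERCC2 and ERCC3 open the DNA, XPA checks the lesion, the nucleases ERCC1-ERCC4 and ERCC5 cut the strand on either side, and polymerases and a ligase fill the gap.

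The libraries of the first experiment held 22701466 to 33352045 counts and those of the second 31824582 to 38199946. Values are CPM, counts relative to library size, scaled by TMM factors, and a gene is called changed when its adjusted p in edgeR's quasi-likelihood test is under 0.05. After a log2 fold change, ± is an approximate standard error, the absolute change over the root of the F statistic. ITGB4 stood at 1485, 1379 and 1416 CPM in plasmid libraries, against 858, 879 and 871 CPM in vector libraries, and at 848, 831 and 832 CPM in resistant libraries, against 602, 598 and 600.3 CPM in parental libraries. Of 13 urothelial and epithelial markers, KRT20 was at 0 in all libraries and UPK1A near it, while keratins 7, 8, 18 and 19 were high. Summed, these markers reached 6653 to 7110 CPM in plasmid libraries, against 4905 to 5089 CPM in vector libraries, and 7611 to 8821 CPM in resistant libraries, against 7106 to 7188 CPM in parental libraries. They did not move together. Of 11 tested, 7 were called higher and 3 lower in plasmid cells, against 36.5% and 35.7% of all genes tested. In resistant cells 5 were called higher and 4 lower, against 26.8% and 27.7%. Their log2 fold changes ran from -0.94 to 1.42 in plasmid and from -1.29 to 1.62 in resistant cells. The 10 immune, endothelial and stromal markers summed to 8.65 to 9.02 CPM in plasmid libraries, against 6.24 to 6.75 CPM in vector libraries, and to 5.44 to 6.42 CPM in resistant libraries, against 12.9 to 13.6 CPM in parental libraries, mostly from COL1A1. COL1A2 was at 0 in the second experiment, and PTPRC and CD3E were under 0.1 CPM on average in every group. In bulk RNA, fewer cells of a type and less RNA per cell cannot be told apart.

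The promoters of DDB2 and XPC are shown because these 2 genes changed most in resistant cells, and because they alone of the 10 held a match to the E2F motif searched for. RefSeq promoter windows (GRCh38.p14, 250 bases before to 50 after each start) were found for all 10 genes, 14 windows in all. The lines give the 250 bases before the start in the second DDB2 window (chr11:47214724-47214973, plus strand) and in the XPC window (chr3:14178602-14178851, minus strand). Capitals mark the E2F motif (GGCGGGAA or its complement TTCCCGCC) and the GC box (GGGCGG or its complement CCGCCC), and the first run of capitals in DDB2 is an E2F motif that overlaps a GC box.
DDB2: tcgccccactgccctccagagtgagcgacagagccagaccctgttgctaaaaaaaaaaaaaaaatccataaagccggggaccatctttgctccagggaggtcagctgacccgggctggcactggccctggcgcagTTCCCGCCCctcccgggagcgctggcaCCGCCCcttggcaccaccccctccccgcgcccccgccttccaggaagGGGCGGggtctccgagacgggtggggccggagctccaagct
XPC: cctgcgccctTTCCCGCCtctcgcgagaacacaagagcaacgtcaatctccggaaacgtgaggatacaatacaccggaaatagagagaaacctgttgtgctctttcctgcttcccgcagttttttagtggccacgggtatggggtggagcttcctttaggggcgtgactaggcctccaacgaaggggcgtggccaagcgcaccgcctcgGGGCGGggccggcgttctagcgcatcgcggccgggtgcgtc

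The E2F motif lies at positions -115 to -108 from the start of the second window in DDB2 and at -240 to -233 in XPC. Of the 14 windows 2 (14.3%) held one, as did 3.16% of all 35116 RefSeq windows of the same length. DDB2 has a second one at positions 27 to 34, after the start and outside the stretch printed. The GC box, on either strand, was in 9 of the 14 windows of the repair genes (64.3%), those of 8 genes, and in 45.0% of all windows. CCAAT, on either strand, was in 3 of the 14 (21.4%), of DDB2, ERCC1 and ERCC2, and in 34.6% of all windows. In DDB2 it lay in the first window (chr11:47214204-47214503), which is not printed. That window holds the gene start in the GENCODE 29 annotation (47214465) and had neither the E2F motif nor the GC box. The printed DDB2 stretch lies downstream of that gene start. The XPC gene start in the same annotation (14178783, minus strand) lies inside the printed XPC stretch, so the later part of that stretch lies within the gene. A match is a string of letters and shows no binding.

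In cells given the ITGB4 plasmid, 7 of the 10 repair genes were called higher and 2 lower than in vector cells. Of all 16950 genes tested in that comparison, 72.2% were called, 36.5% higher and 35.7% lower. ERCC4, ERCC5 and ERCC2 rose by 1.59-fold, 1.52-fold and 1.47-fold, and ERCC6 fell by a factor of 1.49. XPC, DDB2, ERCC1 and ERCC3 were called higher by smaller amounts, DDB1 was called lower, and XPA was not called. The median log2 fold change of the 10 was 0.26, against 0.00 over all genes tested, whose median absolute change was 0.39. The libraries of the 2 groups did not overlap for any of the 10, as for 74.5% of all genes tested. When changes over 1.2-fold were asked for (edgeR's glmTreat), 4 of the 10 were called: ERCC2, ERCC4, ERCC5 and ERCC6. The same test called 8102 of all 16950 genes.

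In resistant cells 5 of the 10 were called higher and 1 lower than in parental cells. Of all 16875 genes tested there, 54.5% were called, 26.8% higher and 27.7% lower. DDB2 stood out in size at 3.26-fold higher. Its absolute change was at or above that of 96.2% of all genes tested. XPC and ERCC1 were 1.67-fold and 1.54-fold higher, ERCC2 and DDB1 were called higher by less, and ERCC3 fell by a factor of 1.31. The median log2 fold change of the 10 was 0.17, against 0.02 over all genes, whose median absolute change was 0.36. For 6 of the 10 the libraries of the groups did not overlap, as for 60.8% of all genes. With library sizes alone in place of TMM factors the median of all genes was 0.18, and 67.8% of called genes were higher, against 49.1% with TMM, so the small changes in this comparison are relative to that choice. Leaving out resistant replicate 2, or asking for changes over 1.2-fold, left 4 calls among the 10, without DDB1 and ERCC2. Of all genes, 8401 were called without that replicate. With the 1.2-fold threshold 5527 of 16875 were called, against 9199 in the main fit.

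**Figure D1:**
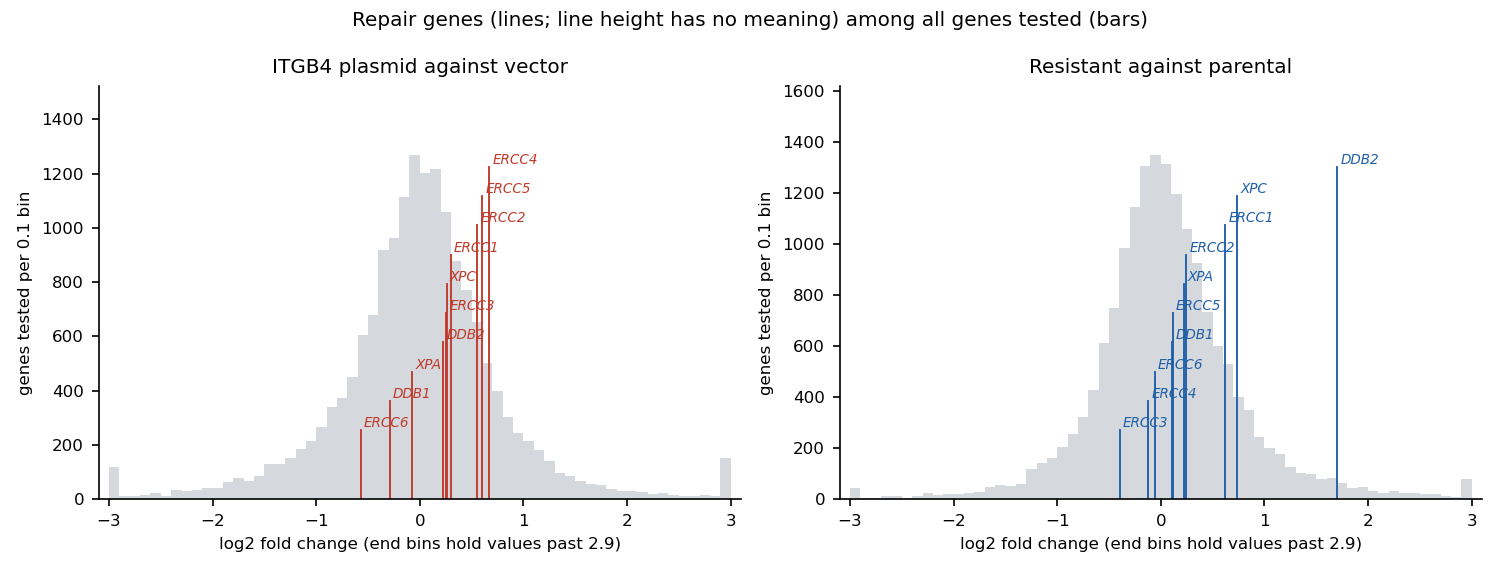
Histograms of the log2 fold change of all genes tested (bars, 0.1 per bin) with the 10 repair genes as labelled lines, for plasmid against vector on the left and resistant against parental on the right. DDB2 at 1.70 is the only one of the 10 that lies far out in the right-hand distribution, and on the left the 10 lie between -0.57 and 0.67.

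Among the factors that find damage, DDB2 differed most between the experiments. DDB2 (ENSG00000134574, chr11:47214465-47239240, plus strand in GENCODE 29) encodes the lesion-binding subunit of the UV-damaged DNA-binding complex. It had 45.3, 44.8 and 48.8 CPM in resistant libraries, against 14.4, 14.5 and 13.8 CPM in parental libraries. All 3 resistant libraries lay above all 3 parental ones, with a log2 fold change of 1.70 ± 0.071 (adjusted p = 1.73e-12). In the first experiment it had 46.1, 42.2 and 42.1 CPM in plasmid libraries, against 38.4, 37.5 and 35.6 CPM in vector libraries, a log2 fold change of 0.23 ± 0.045 (adjusted p = 0.000281). The groups did not overlap there either, but the change was smaller: the difference between the 2 log2 fold changes, plasmid minus resistance, was -1.50 ± 0.080 (adjusted p = 1.42e-12).

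DDB1 (ENSG00000167986, chromosome 11, 61299451 to 61342596, minus strand), the partner that joins DDB2 to a CUL4 ubiquitin ligase, changed less and in opposite directions in the 2 experiments. DDB1 had 336, 324 and 328 CPM in plasmid libraries, against 401, 406 and 400.1 CPM in vector libraries. It was lower in all 3 plasmid libraries, with a log2 fold change of -0.29 ± 0.025 (adjusted p = 1.45e-08). In the second experiment it had 258, 269 and 277 CPM in resistant libraries, against 246, 247 and 253 CPM in parental libraries, a log2 fold change of 0.11 ± 0.040 (adjusted p = 0.0289). That call was lost, with adjusted p-values of 0.0646 to 0.126, when any 1 library other than resistant replicate 1 was left out. With library sizes alone the change was 0.27 (adjusted p = 2.10e-05). The 2 changes differed by -0.42 ± 0.045 (adjusted p = 6.71e-08). Per kb of exon, the ratio of DDB2 to DDB1 was 0.474 ± 0.015 in resistant libraries and 0.157 ± 0.0063 in parental libraries (SD, n = 3 each). In the first experiment it was 0.362 ± 0.013 in plasmid libraries and 0.253 ± 0.0096 in vector libraries. DDB1 shares 3.73% of its exon bases with TKFC on the opposite strand, and TKFC moved in the same directions, with log2 fold changes of -0.43 in plasmid and 0.73 in resistant libraries. The part of these shared bases in the DDB1 values was not tested.

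XPC (ENSG00000154767, chromosome 3, 14145147 to 14178783, minus strand), which starts genome-wide repair by binding the distorted helix, was higher in both comparisons. It had 25.6, 28.2 and 28.3 CPM in resistant libraries, against 15.9, 16.9 and 16.5 CPM in parental libraries, a log2 fold change of 0.74 ± 0.077 (adjusted p = 3.25e-07). In the first experiment it had 43.8, 36.9 and 40.7 CPM in plasmid libraries, against 33.4, 35.0 and 32.99 CPM in vector libraries, a log2 fold change of 0.26 ± 0.053 (adjusted p = 0.000333). The groups did not overlap in either experiment, though plasmid replicate 2 lay close to vector replicate 2. The 2 changes differed by -0.50 ± 0.092 (adjusted p = 7.54e-05). XPC shares 30.4% of its exon bases with other genes, and the counting of the first table used no strand option. One of them, XPC-AS1 on the opposite strand, was also higher in resistant libraries, by 1.64 ± 0.27, but at 2.28 ± 0.18 CPM in resistant and 0.730 ± 0.19 CPM in parental libraries (SD, n = 3 each). Another on that strand, LSM3, had 44.4 ± 3.05 CPM in resistant and 40.9 ± 0.89 CPM in parental libraries, which was not called, and 40.1 ± 0.63 CPM in plasmid and 44.2 ± 0.28 CPM in vector libraries, where it was called lower (-0.14 ± 0.036, adjusted p = 0.00272). The part of the shared bases in the XPC values was not tested.

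ERCC6 (ENSG00000225830, chromosome 10, 49455368 to 49539538, minus strand), also called CSB, is the remodeller that starts transcription-coupled repair. It had 25.5, 28.1 and 24.0 CPM in plasmid libraries, against 38.5, 38.1 and 38.4 CPM in vector libraries. All plasmid libraries were lower, with a log2 fold change of -0.57 ± 0.051 (adjusted p = 2.49e-08). In the second experiment it had 20.2, 20.6 and 22.3 CPM in resistant libraries, against 21.6, 20.9 and 23.2 CPM in parental libraries. These overlapped, and the log2 fold change of -0.06 had a 95% interval of -0.22 to 0.11 and turned to 0.11 with library sizes alone. The 2 changes differed by -0.54 ± 0.091 (adjusted p = 3.10e-05). ERCC6 shares no exon base with another gene.

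**Figure D2:**
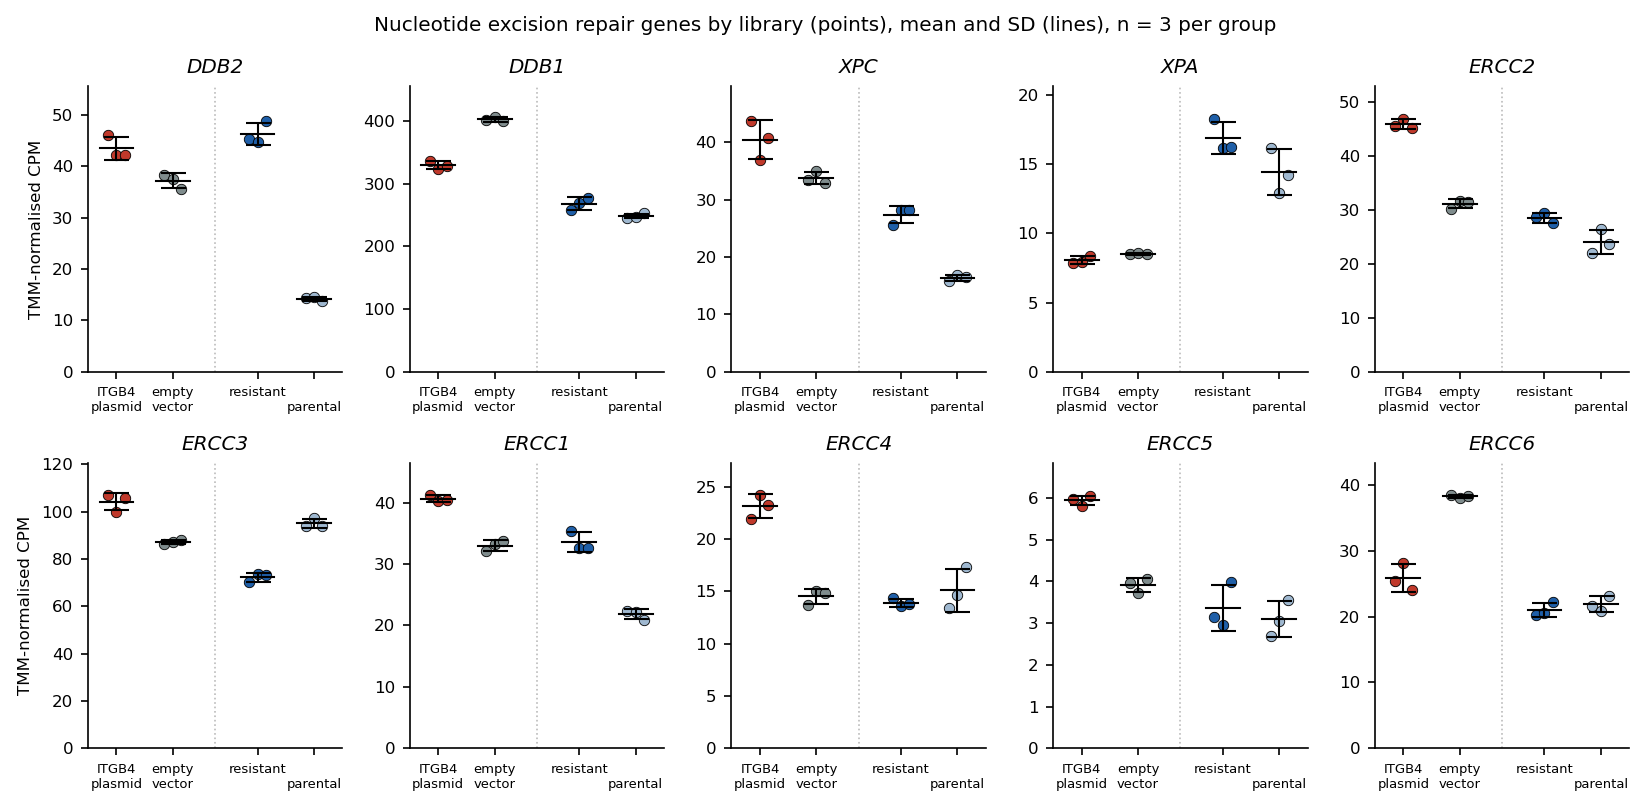
TMM-normalised CPM of the 10 repair genes in each library (points), with the mean and SD of each group of 3 (lines), on axes that start at 0. Within each panel plasmid and vector libraries are left of the dotted line and resistant and parental libraries right of it. DDB2 at 44.8 to 48.8 CPM in resistant against 13.8 to 14.5 CPM in parental libraries shows the widest gap relative to its level.

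Of the TFIIH helicases, ERCC2 was called higher in both comparisons and ERCC3 in opposite directions. ERCC2 (ENSG00000104884, chromosome 19, 45349837 to 45370918, minus strand), known as XPD, had 45.5, 46.9 and 45.3 CPM in plasmid libraries, against 30.3, 31.7 and 31.5 CPM in vector libraries. It was higher in all 3, with a log2 fold change of 0.56 ± 0.039 (adjusted p = 1.25e-09). In the second experiment it had 28.7, 29.5 and 27.6 CPM in resistant libraries, against 22.1, 26.5 and 23.8 CPM in parental libraries, a log2 fold change of 0.25 ± 0.078 (adjusted p = 0.0133), or 0.41 with library sizes alone. That call was lost without resistant replicate 2 (adjusted p = 0.0542) and without parental library a (adjusted p = 0.0940). The 2 changes differed by 0.29 ± 0.086 (adjusted p = 0.00642), though by 0.11 with library sizes alone (adjusted p = 0.283). ERCC2 shares 8.29% of its exon bases with KLC3 on the opposite strand. KLC3 was higher too, at 4.48 ± 0.42 CPM in plasmid and 2.37 ± 0.24 CPM in vector libraries (SD, n = 3 each). In the second experiment it was also higher, at 2.45 ± 0.22 CPM in resistant and 1.35 ± 0.12 CPM in parental libraries. The part of KLC3 in the ERCC2 values was not tested.

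ERCC3 (ENSG00000163161, chromosome 2, 127257290 to 127294176, minus strand), the XPB translocase of TFIIH, was the only one of the 10 called lower in resistant cells. It had 70.2, 73.6 and 73.2 CPM in resistant libraries, against 94.1, 97.2 and 94.0 CPM in parental libraries, a log2 fold change of -0.39 ± 0.047 (adjusted p = 1.70e-06), or -0.23 with library sizes alone (adjusted p = 0.000566). In the first experiment it had 107.1, 100.1 and 106 CPM in plasmid libraries, against 86.4, 87.4 and 88.1 CPM in vector libraries, a log2 fold change of 0.26 ± 0.032 (adjusted p = 1.94e-06). Neither pair of groups overlapped, and the 2 changes, of opposite sign, differed by 0.63 ± 0.055 (adjusted p = 3.14e-09). The ratio of ERCC2 to ERCC3 per kb was 0.563 ± 0.023 in resistant and 0.361 ± 0.027 in parental libraries, and 0.628 ± 0.035 in plasmid and 0.509 ± 0.0092 in vector libraries (SD, n = 3 each).

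XPA (ENSG00000136936, chromosome 9, 97674909 to 97697357, minus strand), the scaffold that verifies the lesion, was called in neither comparison. It had 7.85, 7.94 and 8.39 CPM in plasmid libraries, against 8.48, 8.56 and 8.49 CPM in vector libraries. The log2 fold change of -0.07 had a 95% interval of -0.23 to 0.09 (adjusted p = 0.40), although the libraries did not overlap. In the second experiment it had 18.2, 16.1 and 16.3 CPM in resistant libraries, against 16.2, 12.9 and 14.2 CPM in parental libraries. These overlapped, with a log2 fold change of 0.22 ± 0.097 (adjusted p = 0.0603). XPA passed the threshold with library sizes alone (0.39, adjusted p = 0.00205), a filter of 1 CPM (adjusted p = 0.0402), a fit of all 12 libraries (adjusted p = 0.0199) and without parental library a (adjusted p = 0.0233). The difference between its 2 changes, -0.32 ± 0.13, was called (adjusted p = 0.0332), but not with no low-count filter (adjusted p = 0.0574), nor without any 1 of plasmid replicates 1 and 2, vector replicates 1, 2 and 3, resistant replicate 1 and parental libraries b and c (adjusted p = 0.0636 to 0.117).

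The 2 partners of the nuclease that cuts 5′ of the lesion moved unequally. ERCC4 (ENSG00000175595, chromosome 16, 13920157 to 13952345, plus strand), the catalytic XPF subunit, had 21.9, 24.2 and 23.3 CPM in plasmid libraries, against 13.7, 15.1 and 14.8 CPM in vector libraries. It was higher in all 3, with a log2 fold change of 0.67 ± 0.058 (adjusted p = 1.99e-08). In the second experiment it had 14.3, 13.6 and 13.7 CPM in resistant libraries, against 13.4, 14.6 and 17.3 CPM in parental libraries. The groups overlapped, and the log2 fold change of -0.12 had a 95% interval of -0.33 to 0.09 and was 0.04 with library sizes alone. The 2 changes differed by 0.77 ± 0.12 (adjusted p = 9.68e-06). ERCC4 shares 25.7% of its exon bases with an unnamed antisense gene that had 11 counts in all libraries of the first table and 3 in those of the second. The part of these shared bases in the ERCC4 values was not tested.

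ERCC1 (ENSG00000012061, chromosome 19, 45407333 to 45478828, minus strand), the DNA-binding partner of ERCC4, had 35.4, 32.6 and 32.6 CPM in resistant libraries, against 22.4, 22.1 and 20.9 CPM in parental libraries. It was higher in all 3, with a log2 fold change of 0.62 ± 0.071 (adjusted p = 9.44e-07). In the first experiment it had 41.3, 40.2 and 40.5 CPM in plasmid libraries, against 32.1, 33.2 and 33.7 CPM in vector libraries, again with no overlap, a log2 fold change of 0.30 ± 0.039 (adjusted p = 3.19e-06). The 2 changes differed by -0.34 ± 0.075 (adjusted p = 0.000491). The per-kb ratio of ERCC1 to ERCC4 was thus 3.81 ± 0.076 in resistant and 2.31 ± 0.38 in parental libraries, but 2.78 ± 0.17 in plasmid and 3.59 ± 0.11 in vector libraries (SD, n = 3 each). ERCC1 shares 28.6% of its exon bases with POLR1G on the opposite strand, which was itself higher in resistant cells, at 9.73 ± 0.59 CPM in resistant and 5.34 ± 0.32 CPM in parental libraries (SD, n = 3 each). Its part in the ERCC1 values was not tested.

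ERCC5 (ENSG00000134899, chromosome 13, 102807146 to 102876001, plus strand), the XPG nuclease that cuts 3′ of the lesion, had the fewest counts of the 10, 97 to 189 per library. It had 5.97, 5.80 and 6.03 CPM in plasmid libraries, against 3.96, 3.72 and 4.05 CPM in vector libraries, a log2 fold change of 0.60 ± 0.094 (adjusted p = 2.41e-05). In the second experiment it had 3.14, 2.94 and 3.99 CPM in resistant libraries, against 2.70, 3.04 and 3.56 CPM in parental libraries. These overlapped, and the log2 fold change of 0.11 had a 95% interval of -0.29 to 0.52. Its 2 changes differed by 0.46 ± 0.20, which was not called (adjusted p = 0.0536) except without resistant replicate 3 (adjusted p = 0.0109) or parental library a (adjusted p = 0.0206). Of its exon bases 63.2% lie in the read-through gene BIVM-ERCC5 on the same strand, which is listed at 0 in all 12 libraries, so the ERCC5 level is uncertain. BIVM, which also shares exons with it, had a log2 fold change of -0.68 ± 0.077 in plasmid and 0.33 ± 0.11 in resistant libraries.

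**Figure D3:**
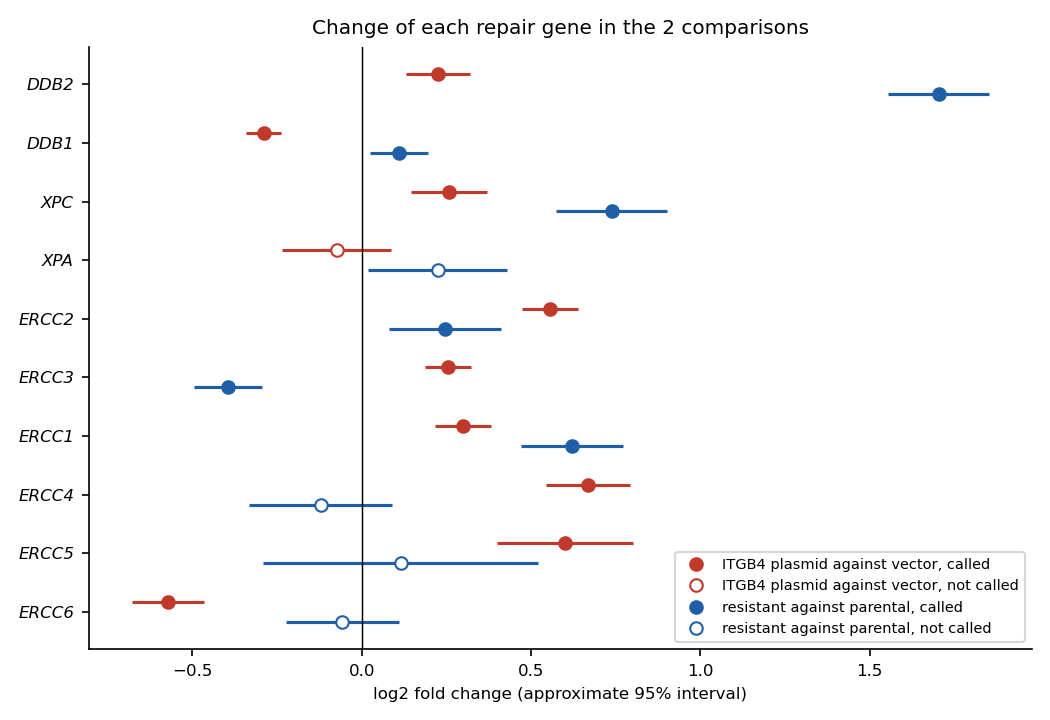
Log2 fold change of each repair gene with its approximate 95% interval, for plasmid against vector (red, upper of each pair) and resistant against parental (blue, lower). Filled points are called. DDB1 and ERCC3 have called changes of opposite sign in the 2 comparisons, and XPC, DDB2, ERCC1 and ERCC2 are called higher in both. The calls of DDB1 and ERCC2 in resistant cells were lost under some alternative settings.

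The 2 experiments share no library, and their changes are set side by side here. They were counted and scaled apart, and their controls stood at unlike levels. DDB2 averaged 37.2 CPM in vector and 14.2 CPM in parental libraries, and XPA 8.51 and 14.4 CPM. The part of these differences between the experiments in the unlike changes was not tested. Of the 10 genes, 4 were called higher in both (XPC, DDB2, ERCC1 and ERCC2), 2 were called in opposite directions (DDB1 and ERCC3), and 3 were called with the plasmid but not in resistant cells (ERCC4, ERCC5 and ERCC6). In resistant cells the call of DDB1 held under 8 of 14 alternative settings and that of ERCC2 under 11. Those of XPC, DDB2, ERCC1 and ERCC3 held under all 14. Of the 15655 genes tested in both comparisons, 7.11% were called higher in both, 30.0% in opposite directions, and 28.9% with the plasmid but not in resistant cells. In 1 fit of all 12 libraries the 2 changes differed for 9 of the 10, as they did for 61.8% of 18516 genes tested. By Euclidean distance over the 2 log2 fold changes, the genes nearest to DDB2 among 9834 protein-coding genes with at least 5 CPM in each table were ZMAT3, RRM2B, CLBA1, IGSF9 and JAG2. ZMAT3, an RNA-binding zinc finger protein, was nearest, with log2 fold changes of 0.19 for plasmid and 1.64 for resistance at a distance of 0.075. RRM2B, a ribonucleotide reductase subunit, followed with 0.11 and 1.53 at a distance of 0.21.

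Levels can be compared between genes only per length, and were divided by the exon bases that lie in no other gene. These lengths count the annotated exon bases of a gene, not those of the transcripts present in these cells. They ran from 1833 bases for XPA to 16737 for ERCC6. On this length DDB1 stood highest in every group. It was at 24.5 ± 0.46 CPM per kb in plasmid and 29.96 ± 0.25 in vector libraries. In the second experiment it was at 19.97 ± 0.73 in resistant and 18.5 ± 0.27 in parental libraries (SD, n = 3 each). DDB2 stood in place 2 in resistant cells, at 9.46 ± 0.45 CPM per kb, and in place 7 in parental cells, at 2.91 ± 0.076 (SD, n = 3 each). In resistant cells XPA, ERCC3, ERCC1, XPC, ERCC2, ERCC4, ERCC6 and ERCC5 followed it. There DDB2 overlapped XPA, ERCC3 overlapped ERCC1, ERCC1 overlapped XPC, and ERCC6 overlapped ERCC5. In parental cells the order after DDB1 ran ERCC3, XPA, ERCC1, XPC, ERCC2, DDB2, ERCC4, ERCC6 and ERCC5, with no overlap between neighbours. In both groups of the first experiment the order from DDB1 through ERCC3, XPC, ERCC1, DDB2, ERCC2 and XPA to ERCC4 was the same, with ERCC3 and XPC overlapping. ERCC5 and ERCC6 held the last 2 places in all 4 groups. ERCC6 was below ERCC5 in plasmid cells and above it in vector cells, where it overlapped ERCC4. These places depend on the length used, since reads over shared bases may or may not have been counted. With all exon bases as length, a choice added after the data were seen, XPC stood below ERCC2 in parental cells, at 3.42 ± 0.11 and 3.74 ± 0.35 CPM per kb, and below DDB2 in plasmid and vector cells. On that length ERCC5 was last in all 4 groups, and ERCC4 stood below ERCC6 in vector cells. DDB1 stayed in place 1 throughout, and DDB2 in place 2 in resistant and 7 in parental cells.

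**Figure D4:**
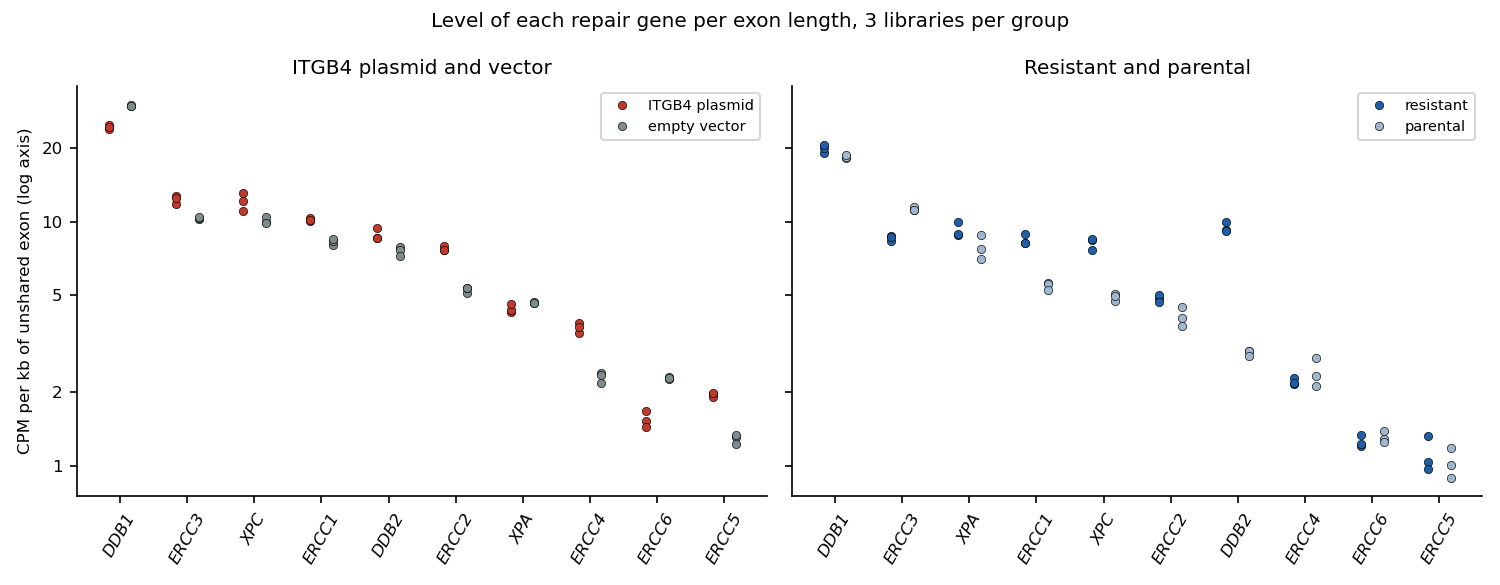
CPM per kb of exon bases in no other gene for the 10 repair genes, 1 point per library, on a log axis, ordered by the mean of the vector libraries (left panel) or the parental libraries (right panel). In the right panel DDB2 in resistant libraries rises out of the order set by parental libraries.

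Beyond the 10, a list of 40 other genes of the pathway was read from the same fits, of which 38 were tested. In plasmid cells 24 were called higher and 6 lower, with a median log2 fold change of 0.20. That is 78.9% called, against 72.2% of all genes tested, and 63.2% called higher, against 36.5% of all genes. In resistant cells 15 were called higher and 6 lower, with a median of 0.12. That is 55.3% called, against 54.5% of all genes tested, and 39.5% called higher, against 26.8% of all genes. GTF2H4 is listed at 0 in all 12 libraries, and GTF2H2, which has near-identical copies in the genome, averaged under 0.4 CPM in every group. These 2 subunits of TFIIH were not tested.

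The partners of the damage sensors changed in both directions. CETN2, the centrin bound to XPC, had a log2 fold change of -0.40 ± 0.054 in plasmid cells and of 0.79 ± 0.10 in resistant cells (adjusted p = 3.87e-06 and 5.48e-06), and the 2 differed (adjusted p = 1.66e-08). RAD23B, which stabilises XPC, was called higher in plasmid cells (0.20 ± 0.023) and lower in resistant cells (-0.14 ± 0.039). Of the ligase partners of DDB1, the scaffold CUL4B rose by 0.57 ± 0.037 in plasmid cells and fell by 0.23 ± 0.055 in resistant cells, on the log2 scale. CUL4A, its paralog, was called in neither.

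Of the other subunits of TFIIH, 6 were tested. With the plasmid 1 was called higher and 3 lower, against 36.5% and 35.7% of all genes tested. Among the 3 called lower was CCNH, the cyclin of its kinase module, at -0.41 ± 0.045. Another of the 3 was CDK7, the kinase of that module, with only 24 to 83 counts per library. It had 1.08, 1.17 and 1.34 CPM in plasmid libraries, against 1.22, 2.89 and 1.60 CPM in vector libraries. These overlapped, and its call (adjusted p = 0.0335) is uncertain. In resistant cells 3 were called higher and none lower: CCNH at 0.29 ± 0.073, GTF2H3 at 0.63 ± 0.047 and GTF2H5 at 0.43 ± 0.10. Of all genes tested there, 26.8% were called higher and 27.7% lower. The changes of 3 of the 6 differed between the experiments, as did those of 61.8% of all genes. Among 5 other transcription-coupled factors, TCEA1, which restarts stalled polymerase, was called lower in plasmid cells (-0.46 ± 0.029) and higher in resistant cells (0.43 ± 0.045). XAB2, which binds XPA, was higher by 0.62 ± 0.056 in plasmid cells and stood at -0.01 in resistant cells. UVSSA, which brings TFIIH to the polymerase, was called lower in plasmid cells (-0.12 ± 0.047) and higher in resistant cells (0.46 ± 0.10). SLX4, the scaffold that docks ERCC1-ERCC4, rose by 0.60 ± 0.065 in plasmid cells and fell by 0.65 ± 0.097 in resistant cells.

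Of the 18 genes that fill and seal the gap, the longest of these lists, 15 were called higher in plasmid cells and none lower, with a median log2 fold change of 0.47. Of all genes tested there, 36.5% were called higher and 35.7% lower. The largest change of the 18 was that of POLD3, a subunit of polymerase delta, at 1.25 ± 0.042, followed by the clamp loader subunit RFC2 at 1.04 ± 0.042. POLE, the catalytic subunit of polymerase epsilon, rose by 0.88 ± 0.029. In resistant cells 6 of the 18 were called higher and 3 lower, with a median of 0.07, against 26.8% and 27.7% of all genes tested called higher and lower. LIG1, the ligase of replication, rose by 1.08 ± 0.079, POLD2 by 0.90 ± 0.053 and PCNA, the sliding clamp, by 0.73 ± 0.055, while POLD3 was called lower at -0.44. All 3 subunits of RPA, which coats the opened strand, were called higher in both comparisons, RPA2 by 0.60 ± 0.041 in plasmid cells and by 0.38 ± 0.066 in resistant cells. Of all genes tested in both comparisons, 7.11% were called higher in both.

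Most of these genes also serve replication, so proliferation markers were read beside them. Their 10 genes summed to 1162 to 1177 CPM in plasmid libraries, against 1289 to 1307 CPM in vector libraries. Of the 10, 3 were called higher and 6 lower, against 36.5% and 35.7% of all genes tested. In resistant cells all 10 were called lower, with a median log2 fold change of -1.67, and summed to 533 to 561 CPM in resistant libraries, against 1769.9 to 1785 CPM in parental libraries. Of all genes tested there, 27.7% were called lower. CDC20, an activator of mitotic exit, was the lowest of the 10 at -2.20 ± 0.051. The part of proliferation in the changes of the repair genes was not tested.

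**Figure D5:**
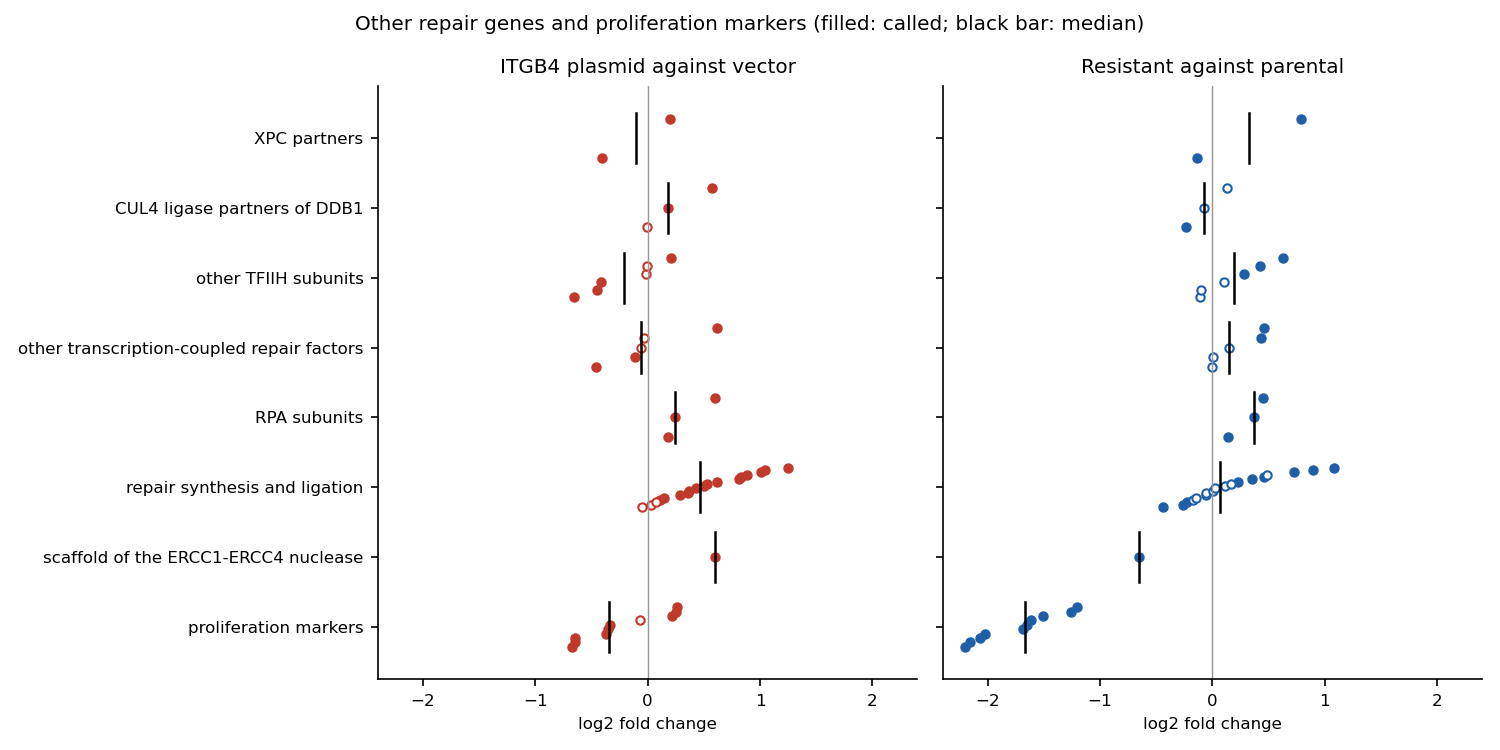
Log2 fold change of each tested gene of the 7 other pathway groups and of the proliferation markers, for plasmid against vector (left) and resistant against parental (right). Filled points are called and black bars are medians. Repair synthesis and ligation has a median of 0.47 on the left and 0.07 on the right, and proliferation markers have a median of -1.67 on the right.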

How the data were processed

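The deposited tables hold raw counts per gene, 1 table for each experiment. For the first experiment, per the file headers, read pairs over exons were counted by the authors with featureCounts 2.0.1 and the Ensembl 107 annotation of GRCh38, with no strand option, from alignments whose names hold hisat. How the second table was counted, and whether by strand, is not given in the sources used here. Per the submitters' processing notes, the genome was hg38. Libraries were made with a directional kit, per the labels' protocols.

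Each table was filtered with filterByExpr, scaled by TMM and fitted whole with edgeR 4.0.16 in R 4.3.3 (quasi-likelihood test, Benjamini-Hochberg adjustment over all genes tested), with 1 further fit of all 12 libraries for differences between the experiments. The biological coefficient of variation was 2.65% in the first experiment and 6.97% in the second. Every pair of replicates differed by more than sampling noise (chi-square per degree of freedom 1.54 to 12.4). The counts behind the 10 genes were 104 to 13521 per library in the first experiment and 97 to 10713 in the second. The procedure was also run on simulated data, in which far fewer genes changed than were called here. That run does not show how the scaling behaves with so many changes. Exon lengths, shared exon bases and gene positions are from GENCODE 29, and promoter windows from RefSeq (GRCh38.p14).

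The 10 genes, the gene lists and the tests were chosen with earlier results of these data known. The text names all 10, up to 3 called genes with the smallest p per list and comparison, genes that share exons with the 10, and the 5 genes nearest to the member with the largest change. CUL4A, CDK7, GTF2H2, GTF2H4, and genes named in a second comparison only to set beside the first, such as XAB2 and POLD3, were added after their values were seen. One planned gene list and 1 gene of the pathway list are not reported here. Alternatives were other scalings and filters, DESeq2 1.42.0, limma-voom (limma 3.58.1), a replicate block, a threshold of 1.2-fold, a joint fit of the 12 libraries and leaving out each library.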

Additional observations from a re-analysis of the deposited data

How the results depend on the processing

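The counts of called genes stayed within 1.5 times the reported ones under every alternative except the test for a change over 1.2-fold (glmTreat), which in plasmid cells called 4 of the 10 repair genes and 8102 of all genes, and in resistant cells 13 other pathway genes and 5527 of all genes. With 1 library left out, calls in plasmid cells were 9 in each case for the 10 repair genes, 26 to 29 for other pathway genes and 11696 to 12389 for all genes. In resistant cells they were 4 to 6, 19 to 24 and 8331 to 9024, and 8 to 10 repair genes differed between the experiments. Of the 10 genes in resistant cells, those that changed sign were not called: ERCC4 at 0.043 and ERCC6 at 0.11 with library sizes alone, and ERCC5 at -0.026 without resistant replicate 3 (-0.026 to 0.22 over the libraries left out). The cause was not tested. DDB2, XPC, ERCC1 and ERCC3 were called in resistant cells under all 14 alternatives. ERCC5, with 97 to 189 counts per library, has the widest intervals of the 10.

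Plasmid and vector libraries share replicate numbers. Deviations of same-numbered libraries from their group means correlated at -0.20, -0.20 and 0.03, and those of differently numbered libraries at -0.11 to 0.23. With 3 libraries per group these values cannot show whether the numbers pair the libraries. With the replicate number as a block, 9 repair genes and 12070 of all genes were called. No paired analysis was possible because the parental columns carry no number tied to a sample, which concerns the resistance comparison.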
